A study of Mus musculus with 6 samples.

Results

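Muc1, Muc4, Muc13 and Muc20 code for membrane-bound mucins and were chosen by name as 4 of the 27546 genes in the table of expression values. The RNA came from distal colon of C57BL/6 mice (C57BL/6J in the methods), 3 Gm31629-/- mice and 3 WT littermates. Each RNA-Seq library was taken as 1 mouse, although the methods speak of RNA pooled from 3 mice per genotype. Gm31629-/- mice lack a stretch of the long noncoding RNA gene Gm31629 on chromosome 1, and the methods name no driver that would limit the deletion to a cell type. Every mouse of both groups was 8 weeks old, drank 3% dextran sulfate sodium (DSS, a sulfated sugar polymer that damages the colon lining) over 7 days, and was sacrificed on day 8, so that all values were from injured colon and no untreated mice were compared. The values were FPKM, that is fragments divided by gene length and by library depth. The division by length lets genes be set side by side, as far as reads were assigned to genes alike, which was not tested. By an estimate from the FPKM of single fragments, the depth by which the values had been divided was 18005954 to 18795144 fragments per library, and the group means stood at a ratio of 0.999. The fragments recovered over the listed genes summed to more than this depth in each library, and the cause was not tested.

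Membrane-bound mucins are large glycoproteins anchored in the apical membrane of epithelial cells, where their sugar-covered extracellular parts form the glycocalyx beneath the secreted mucus. Their extracellular parts are rich in serine, threonine and proline, because O-linked sugars are attached to serine and threonine. MUC1 has a short cytoplasmic tail that is phosphorylated and binds β-catenin and receptor tyrosine kinases. MUC4 and MUC13 carry EGF-like domains, and MUC4 binds the receptor ERBB2. MUC20 binds the hepatocyte growth factor receptor MET. The gel-forming mucin MUC2, by contrast, is secreted by goblet cells and builds the mucus layer itself.

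The coding sequences of the 4 genes showed this shared composition. The genes were chosen by name as mucins, so the composition came with the choice and is not an independent result. Codons for serine, threonine and proline made up 44.1% of 631 codons in Muc1, 44.8% of 3470 codons in Muc4, 38.0% of 573 codons in Muc13 and 43.5% of 688 codons in Muc20. The median of 20952 genes was 18.7%, and at least 99.7% of them were below each of the 4. Each coding sequence was compared with itself at a shift, and the share of equal bases was highest at 60 bases in Muc1 (40.9%), 372 in Muc4 (43.5%), 81 in Muc13 (47.9%) and 72 in Muc20 (33.8%). For Muc1 and Muc4, the members past the threshold for adjusted p, the pair of adjacent repeats most alike is shown. The bases are from GRCm38, 5′ to 3′ on the plus strand, with the codons for serine and threonine in capitals. The Muc1 repeats are whole and lie at chr3:89230015-89230074 and chr3:89230075-89230134, in exon 2 of the gene. For Muc4 the first 60 bases of each repeat are given, at chr16:32751957-32752016 and chr16:32752329-32752388.
Muc1 repeat 1: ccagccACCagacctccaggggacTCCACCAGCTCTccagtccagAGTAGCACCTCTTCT
Muc1 repeat 2: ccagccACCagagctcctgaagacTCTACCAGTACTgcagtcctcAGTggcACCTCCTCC
Muc4 repeat 1: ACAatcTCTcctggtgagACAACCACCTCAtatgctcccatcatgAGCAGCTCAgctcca
Muc4 repeat 2: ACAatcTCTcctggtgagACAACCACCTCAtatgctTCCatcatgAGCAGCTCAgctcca
The 20 codons shown held 10 and 9 serine or threonine codons in the Muc1 repeats and 9 and 10 in the Muc4 repeats. The whole repeats of these pairs, picked as the most alike, were 78.3% identical in Muc1 and 95.2% identical in Muc4. How reads from near-identical repeats were assigned was not tested.

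Upstream windows of 250 bases are printed for Muc1, the gene that rose, Muc4, the gene with lower values, and Muc13, the most abundant member. The sequences are from RefSeq, build GRCm38.p6, read 5′ to 3′ on the plus strand, which is the coding strand of all 3 genes, and end at the base before the gene start. They lie at chr3:89228806-89229055, chr16:32735636-32735885 and chr16:33793787-33794036, and capitals mark the motif matches.
Muc1 upstream: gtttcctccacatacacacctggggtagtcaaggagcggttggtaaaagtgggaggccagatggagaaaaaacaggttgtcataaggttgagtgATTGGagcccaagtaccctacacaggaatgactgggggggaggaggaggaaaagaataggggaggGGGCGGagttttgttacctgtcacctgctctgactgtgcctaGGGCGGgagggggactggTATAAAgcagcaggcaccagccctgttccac
Muc4 upstream: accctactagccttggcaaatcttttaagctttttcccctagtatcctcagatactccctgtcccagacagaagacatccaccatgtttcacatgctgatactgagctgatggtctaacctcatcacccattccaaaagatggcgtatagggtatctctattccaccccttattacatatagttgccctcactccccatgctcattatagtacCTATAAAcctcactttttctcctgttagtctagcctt
Muc13 upstream: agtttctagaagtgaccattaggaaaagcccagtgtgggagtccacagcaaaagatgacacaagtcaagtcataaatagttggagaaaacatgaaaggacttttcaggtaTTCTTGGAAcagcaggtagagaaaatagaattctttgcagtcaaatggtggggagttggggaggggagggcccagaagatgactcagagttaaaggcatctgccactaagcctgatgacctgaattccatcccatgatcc
The letters searched, on both strands, were GGGCGG for the GC box of SP1 and CCAAT for the Y box from which YB-1 takes its name. Also searched were TATAAA for the TATA box, TTTATNG for CDX factors, TTCNNNGAA for STAT factors and CAAAGTCCA for HNF4A. For the NF-kappaB site the letters were GGG[AG]NN[CT][CT]CC, where N is any base and brackets hold alternatives. The Muc1 window held GC boxes at −91 and −49, a Y box on the opposite strand at −156 and a TATA box at −31, counted from the gene start to the first base of the match. The Muc4 window held a TATA box at −36 that overlapped a CDX match at −37. The Muc13 window held a STAT match at −140, and a window before a further Muc13 start, not printed because transcripts overlap it, held an HNF4A match at −186. The Muc20 window, on the minus strand, held none of these motifs. Among 32851 windows of the same length, 32.7% held the GC box, 33.85% the Y box, 12.4% the TATA box, 9.81% the CDX letters, 7.02% the STAT letters, 0.3835% the HNF4A letters and 7.25% the NF-kappaB site. The matches describe letters and do not show that a factor bound.

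Before the genotypes were compared, the libraries were checked. Gm31629 was not analysed here, so the deletion itself was not checked against the labels. The library of Gm31629-/- mouse 1 held Y-linked transcripts (Ddx3y 9.27 FPKM, Eif2s3y 15.4 FPKM) with Xist at 0.00606 FPKM, whereas the other 5 libraries held 0 fragments of Ddx3y and Eif2s3y and 8.35 to 13.8 FPKM of Xist. The methods name male mice, which only the library of Gm31629-/- mouse 1 matched. The other 5 libraries, with all WT libraries among them, did not match, and the cause was not tested. Because mouse 1 differed from the rest in these transcripts, the values of Muc1, Muc4 and Muc13 are also given without it. None of the 15 epithelial markers was at 0 in all mice of a group. The summed FPKM of these markers was 12829.9 to 14096 in WT mice and 8166 to 9709 in Gm31629-/- mice. By these sums, colon epithelium was present in all 6 libraries.

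Muc1 rose in Gm31629-/- mice, Muc4 was lower, and for Muc13 and Muc20 no difference was detectable. Muc1 (ENSMUSG00000042784) lies on chromosome 3, 89229057 to 89233381 of GRCm38, on the plus strand. Its FPKM was 30.7, 30.6 and 44.5 in Gm31629-/- mice 1 to 3 and 8.92, 5.59 and 3.76 in WT mice 1 to 3. The groups did not overlap, and the lowest Gm31629-/- value was well above the highest WT value. The Gm31629-/- mean was 35.3 ± 7.99 (SD, n = 3) and the WT mean 6.09 ± 2.61 (SD, n = 3), a ratio of 5.79. These values rested on 1323 to 1917 fragments per Gm31629-/- mouse and 166 to 387 per WT mouse. On the log2(FPKM + 1) scale, which understates the change of low genes, the log2 fold change was 2.40 (SE 0.29, 95% interval 1.72 to 3.08, limma adjusted p = 0.00114). Without Gm31629-/- mouse 1 it was 2.48 (limma adjusted p = 0.00234). The test covered the 14657 genes whose mean reached 0.5 FPKM, and a call needed a log2 fold change larger than 1 in size as well as an adjusted p under 0.05. Of these genes 23.1% were called, 18.4% as higher and 4.64% as lower, and in 57.8% the groups did not overlap. Muc1 stood at place 609 by log2 fold change. In bulk tissue, more cells that express a gene and more RNA per cell cannot be told apart.

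**Figure D1:**
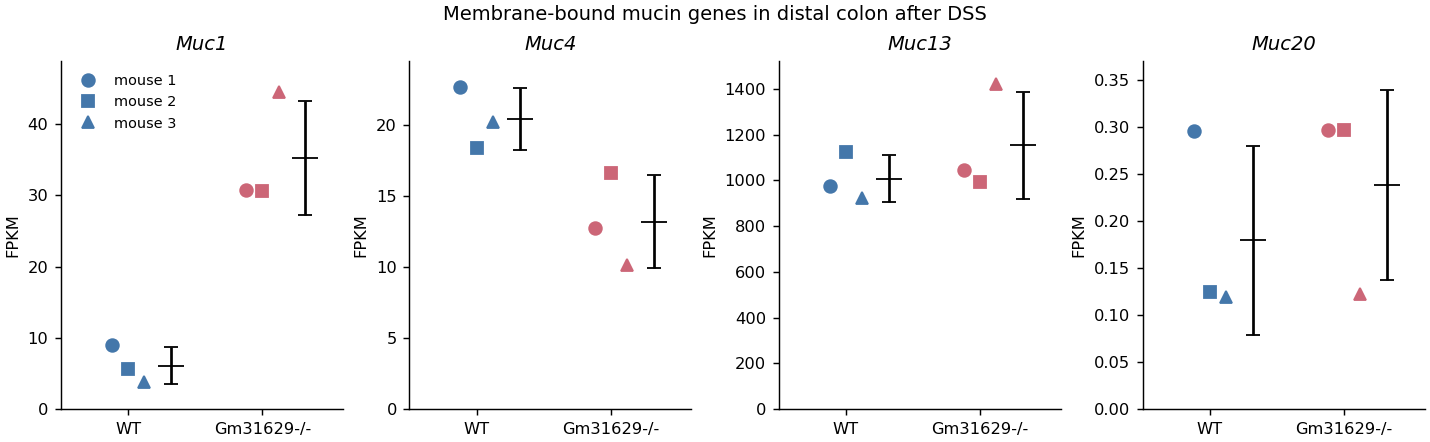
FPKM of Muc1, Muc4, Muc13 and Muc20 in WT mice (blue) and Gm31629-/- mice (red), with 1 point per mouse, a horizontal line at the mean and a bar of 1 SD to each side (n = 3). Each panel has its own linear axis from 0. The Muc1 groups lie apart (3.76 to 8.92 against 30.6 to 44.5), the Muc4 groups lie apart in the other direction (18.4 to 22.7 against 10.1 to 16.6), and the Muc13 and Muc20 groups overlap.

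Among the members with EGF-like domains, Muc4 (ENSMUSG00000079620, chromosome 16, 32735886 to 32782391, plus strand) had lower values in Gm31629-/- mice. Its FPKM was 12.7, 16.6 and 10.1 in Gm31629-/- mice 1 to 3 and 22.7, 18.4 and 20.2 in WT mice 1 to 3. The groups did not overlap, although Gm31629-/- mouse 2 came close to WT mouse 2, and 57.8% of the tested genes also had groups that did not overlap. The mean was 13.2 ± 3.28 (SD, n = 3) against 20.4 ± 2.16 (SD, n = 3), which was 1.55 times higher in WT mice, from 2185 to 4932 fragments per mouse. The log2 fold change was −0.62 (SE 0.20, 95% interval −1.08 to −0.15, limma adjusted p = 0.0400), under the threshold for p but short of that for fold. By adjusted p alone, 14.6% of the tested genes were lower and 28.9% higher. Without Gm31629-/- mouse 1 the value was −0.61 (limma adjusted p = 0.0760), and of the 6 fits that each left out 1 mouse, 1 kept an adjusted p under 0.05, the fit without Gm31629-/- mouse 2 (−0.79, limma adjusted p = 0.0149).

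Muc13 (ENSMUSG00000022824, chromosome 16, 33794037 to 33819934, plus strand) was the most abundant member in every library. Its FPKM was 1046, 995 and 1424 in Gm31629-/- mice 1 to 3 and 976, 1124 and 924 in WT mice 1 to 3. The groups overlapped, with Gm31629-/- mouse 3 highest and WT mouse 3 lowest. The Gm31629-/- mean was 1155 ± 234 (SD, n = 3) and the WT mean 1008 ± 104 (SD, n = 3). The log2 fold change was 0.18 (95% interval −0.30 to 0.67, limma adjusted p = 0.496), and 0.24 without Gm31629-/- mouse 1 (limma adjusted p = 0.432). The interval lay below that of Muc1 and included 0.

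Muc20 (ENSMUSG00000035638, chromosome 16, 32777419 to 32797435, minus strand), the partner of MET, was close to the limit of this depth. It had 22, 22 and 9 fragments in Gm31629-/- mice 1 to 3 and 22, 9 and 9 fragments in WT mice 1 to 3, that is 0.297, 0.296 and 0.122 FPKM and 0.295, 0.124 and 0.119 FPKM. The highest values of both groups were alike, and the groups overlapped. With a mean under 0.5 FPKM it was left out of the test, so that 3 of the 4 members were tested, and in a fit without this filter its log2 fold change was 0.07 (limma adjusted p = 0.590). A difference in Muc20 was therefore not detectable at this depth.

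The order of the levels changed between the genotypes. In all 3 WT mice it was Muc13, Muc4, Muc1, Muc20 from highest to lowest FPKM, and in all 3 Gm31629-/- mice it was Muc13, Muc1, Muc4, Muc20. In each group the ranges of neighbours in this order did not overlap. By mean FPKM among all 27546 genes, Muc13 stood at place 31 in WT mice and 24 in Gm31629-/- mice, Muc4 at 2652 and 3932, Muc1 at 5966 and 1597, and Muc20 at 15204 and 17612, listed here as WT first.

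Muc13 made up nearly all of the membrane-bound mucin signal in both groups. Of the summed FPKM of the 4 genes, its share was 97.4% ± 0.535 (SD, n = 3) in WT mice and 95.9% ± 0.432 (SD, n = 3) in Gm31629-/- mice. The share of Muc1 was 0.397% to 0.885% in WT mice and 2.82% to 3.01% in Gm31629-/- mice, so that it was both higher and narrower in its spread in the latter group. The share of Muc4 was 1.99% ± 0.347 (SD, n = 3) against 1.15% ± 0.456 (SD, n = 3), with WT given first. The sum itself averaged 1035 ± 102 FPKM (SD, n = 3) for WT and 1204 ± 239 FPKM (SD, n = 3) for Gm31629-/-, and followed Muc13.

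Ratios of FPKM between members within a library do not depend on how the libraries are scaled to each other. The FPKM of Muc1 was 2.41, 1.84 and 4.40 times that of Muc4 in Gm31629-/- mice 1 to 3 and 0.393, 0.304 and 0.186 times in WT mice 1 to 3. The balance of these genes thus lay on opposite sides of 1 in the groups, and the difference of log2(FPKM + 1) between Muc1 and Muc4 was 3.02 higher in Gm31629-/- mice (exact two-sided permutation p = 0.1, adjusted over 6 pairs 0.15). The FPKM of Muc13 was 34.02, 32.56 and 32.01 times that of Muc1 in Gm31629-/- mice 1 to 3 and 109, 201 and 245 times in WT mice 1 to 3. Within Gm31629-/- mice the log2 distance between Muc1 and Muc13 varied by an SD of 0.040 (n = 3), although both genes were highest in mouse 3, and the distance was smaller than in WT mice by 2.22 (exact two-sided permutation p = 0.1, adjusted 0.15). Muc1 against Muc20 differed between the groups by 2.33 and Muc4 against Muc20 by −0.69 (exact permutation p = 0.1 each, adjusted 0.15). For Muc4 against Muc13 the difference was −0.80 (exact permutation p = 0.2, adjusted 0.24), and for Muc13 against Muc20 it was 0.11 (exact permutation p = 0.8, adjusted 0.8). Muc20 was at 0.119 to 0.297 FPKM, where the added 1 outweighs the value. The differences with Muc20 are therefore not ratios of FPKM and do depend on the scaling. With 3 mice against 3, no exact p can be under 0.10, so that these differences could not pass 0.05 whatever their size.

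The makeup of the tissue RNA differed between the groups along with these values. Of the 15 epithelial markers, 0 were called higher and 3 lower, with a median log2 fold change of −0.50. Among all tested genes 18.4% were called higher and 4.64% lower, and their median was 0.15. Krt8, a keratin of simple epithelium, averaged 4198 ± 137 FPKM for WT and 2042 ± 353 FPKM for Gm31629-/- (SD, n = 3), and Krt19, another such keratin, was 2068 ± 103 and 1042 ± 182 FPKM. Smooth muscle markers rose, with 10 of 11 tested called higher and a summed FPKM of 21.8 to 38.4 in WT mice and 1176 to 1811 in Gm31629-/- mice, and none of the list at 0 in all mice of a group. The markers of enteric neurons and glia gave 10 of 11 called higher, with summed FPKM of 2.82 to 5.42 and 65.4 to 273 and 1 gene, Elavl4, at 0 in all WT mice. Fibroblast markers (8 of 8 called higher, 17.4 to 37.6 against 203 to 567), endothelial markers (6 of 6, 2.01 to 5.05 against 33.3 to 72.9) and macrophage markers (7 of 7, 26.7 to 33.6 against 279 to 579) moved likewise, with WT sums given first. So did markers of neutrophils (6 of 7, 69.8 to 127 against 483 to 1023, with Ngp at 0 in all WT mice) and of B and plasma cells (5 of 6, 109 to 124 against 323 to 518). The part of these shifts in the values of the mucin genes was not tested.

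The members were also set against the epithelium in the same library. For this, the mean log2(FPKM + 1) of the 15 epithelial markers was subtracted from that of each gene. The difference between Gm31629-/- and WT mice was then 2.85 for Muc1, with groups that did not overlap (exact two-sided permutation p = 0.1, adjusted over the 4 genes 0.133). For Muc4 it was −0.16, and the groups overlapped (exact permutation p = 0.7). For Muc13 it was 0.64, from 0.95 ± 0.072 (SD, n = 3) for WT to 1.58 ± 0.24 (SD, n = 3) for Gm31629-/-, and the groups did not overlap (exact permutation p = 0.1, adjusted 0.133). For Muc20 it was 0.53, again with groups that did not overlap (exact permutation p = 0.1, adjusted 0.133). Before the subtraction the differences were 0.18 for Muc13 and 0.07 for Muc20, and the rest of both values was the lower level of the epithelial markers in Gm31629-/- mice. Muc20 was under 0.5 FPKM in every mouse, so the added 1 left it nearly constant and its separation mostly reflected these markers. With a pseudocount of 0.1 the Muc20 difference was 0.74 (exact permutation, adjusted p = 0.267). How many of all genes had groups apart on this scale was not counted. With the median of the 15 markers in place of their mean, the differences were 2.59 for Muc1, −0.42 for Muc4, 0.38 for Muc13 and 0.26 for Muc20 (exact permutation, adjusted p = 0.2 each), so that the size of the last 3 depended on how the markers were summarised. The smallest p possible here was 0.10. In limma fits with each library scaled to the same markers, the log2 fold change was −0.19 for Muc4 (adjusted p = 0.531) and 0.64 for Muc13 (adjusted p = 0.0353), so that with this scaling Muc4 no longer passed the threshold for p and Muc13 did. The same scaling moved the median log2 fold change of all 14657 tested genes to 0.49, and 92.8% of the called genes were then higher.

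**Figure D2:**
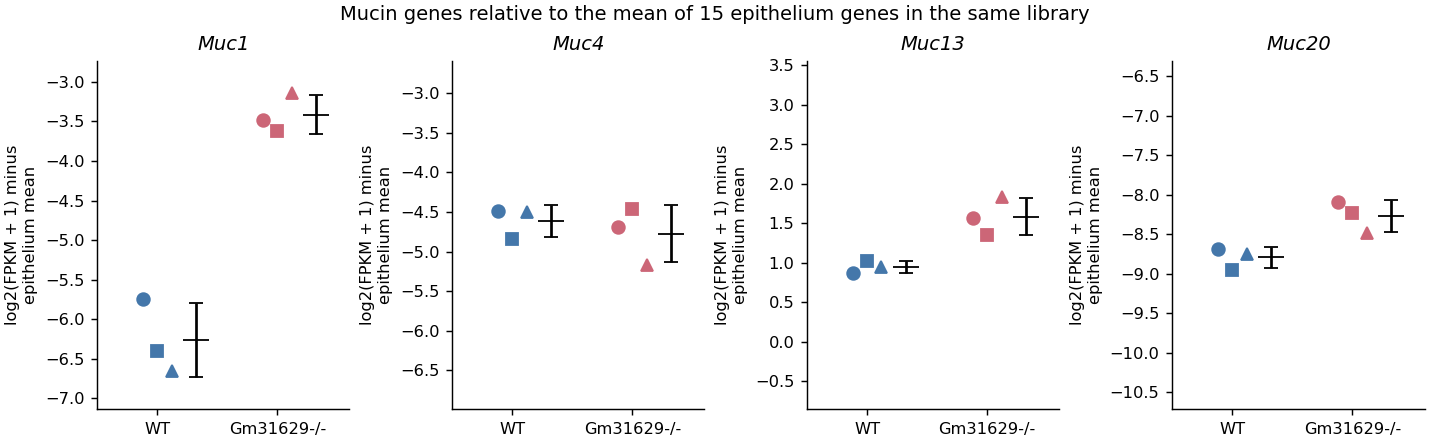
log2(FPKM + 1) of each gene minus the mean of 15 epithelial marker genes in the same library, for WT mice (blue) and Gm31629-/- mice (red). There is 1 point per mouse with the mean and a bar of 1 SD to each side (n = 3), and the 4 panels span the same number of log2 units. The groups lie apart by 2.85 for Muc1, 0.64 for Muc13 and 0.53 for Muc20, and the Muc4 groups overlap. With Muc20 under 0.5 FPKM, its panel mostly shows the lower epithelial markers of Gm31629-/- mice.

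The membrane-bound mucins were read beside markers of the epithelial cell types. For comparison, 18.4% of all tested genes were called higher and 4.64% lower. Of 8 goblet cell markers, 4 were called higher and 2 lower (summed FPKM 4952 to 6731 in WT mice and 12488 to 17813 in Gm31629-/- mice). Zg16, a lectin of the mucus layer, averaged 1570.4 ± 325 FPKM for WT and 6719 ± 1256 FPKM for Gm31629-/- (SD, n = 3), with a log2 fold change of 2.101 (limma adjusted p = 0.00123). Tff3, a trefoil peptide of goblet cells, had a log2 fold change of 1.71 (limma adjusted p = 0.00191). The list did not move one way, with a median of 0.42. The 2 called lower, named here after their values were seen, were Retnlb, an antibacterial resistin-like protein, at −1.44 (limma adjusted p = 0.0116) and Agr2, a protein of mucin folding, at −1.001 (limma adjusted p = 0.0142). Spdef, a transcription factor of goblet cells, was −0.97 (limma adjusted p = 0.00309). Of 8 markers of absorptive colonocytes, 1 was called higher and 1 lower (6674 to 8367 against 2113 to 7692 FPKM), with a median of 0.80. The lower one was Car1, a carbonic anhydrase, at −2.13 (limma adjusted p = 0.0126), and the higher one, also named after its value was seen, was Saa1, a serum amyloid gene, at 2.03 (limma adjusted p = 0.0057). Mesothelium, which lines the outer wall and also expresses membrane-bound mucins, had 2 of 3 tested markers called higher (summed FPKM 2.51 to 3.00 in WT mice and 3.49 to 42.5 in Gm31629-/- mice, with 2 of the 6 listed markers, Wt1 and Bnc1, at 0 in all WT mice). Its marker Msln was 14.96, 24.5 and 2.70 FPKM in Gm31629-/- mice 1 to 3. Upk1b, another marker of this list, was 3.04, 5.45 and 0.400 FPKM in Gm31629-/- mice 1 to 3. In WT mice 1 to 3 Upk1b was 1.96, 1.51 and 1.99 FPKM, so that the groups overlapped (log2 fold change 0.24, limma adjusted p = 0.724). The part of mesothelium in the Muc1 values was not tested.

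Other mucin genes were looked at in the same fit, in which 18.4% of all tested genes were called higher and 4.64% lower. Of 7 other transmembrane mucin genes looked for, 3 were in the table and 2 passed the filter, of which 0 were called higher and 1 lower, with a median log2 fold change of −0.50. Muc3, a mucin of the enterocyte brush border, was 1929.9, 1059.9 and 2412 FPKM in Gm31629-/- mice 1 to 3 and 1219, 1303 and 1397 FPKM in WT mice 1 to 3. These groups overlapped (log2 fold change 0.38, limma adjusted p = 0.348). Muc3a fell from 133 ± 17.3 to 55.5 ± 30.6 FPKM (SD, n = 3), with a log2 fold change of −1.38 (limma adjusted p = 0.0187). Muc3 and Muc3a lie near each other on chromosome 5, and how the counting divided reads between them was not tested. Muc16 did not exceed 0.117 FPKM and was not tested. Of 5 gel-forming mucin genes, 4 were in the table and Muc2 passed the filter, at 1084 ± 98.2 FPKM for Gm31629-/- and 1297 ± 127 FPKM for WT (SD, n = 3), a log2 fold change of −0.26 (limma adjusted p = 0.272).

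Of 9 genes for receptors and adaptors that bind membrane-bound mucins, 0 were called higher and 2 lower, and the median log2 fold change was −0.22. The shares over all tested genes were 18.4% higher and 4.64% lower. Lgals3 (galectin-3), a lectin that binds sugars on MUC1, was 352, 377 and 338 FPKM in Gm31629-/- mice 1 to 3 and 1024, 1049 and 1012 FPKM in WT mice 1 to 3. It fell by 1.53 on the log2 scale (limma adjusted p = 0.00053), opposite in direction to Muc1 and with a narrow spread in both groups. Erbb2, the receptor bound by MUC4, was 39.2, 22.8 and 43.9 FPKM against 61.0, 92.1 and 78.4 FPKM in WT mice 1 to 3, and fell by 1.14 (limma adjusted p = 0.0144). Jup, the junction protein γ-catenin, was −0.52 (limma adjusted p = 0.0251), past the threshold for p and not for fold. Erbb3, a partner of ERBB2, was −0.71 (limma adjusted p = 0.0811). Egfr, Met, the receptor bound by MUC20, Src, Grb2 and Ctnnb1, which codes for β-catenin, had log2 fold changes of −0.22 to 0.33 with adjusted p of 0.167 to 0.423.

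Genes for sheddases, proteases that release the outer part of membrane proteins, had a median log2 fold change of 0.72 over 4 genes, of which 1 was called higher and 0 lower, beside 18.4% of all tested genes called higher. Mmp14, a membrane-type metalloproteinase, was 22.3, 75.6 and 45.8 FPKM in Gm31629-/- mice 1 to 3 and 11.7, 12.9 and 13.9 FPKM in WT mice 1 to 3 (log2 fold change 1.66, limma adjusted p = 0.0137). Adam9 was 0.76 (limma adjusted p = 0.0238) and Adam17, which cleaves MUC1, was 0.68 (limma adjusted p = 0.0311), both past the threshold for p alone, and Adam10 was 0.35 (limma adjusted p = 0.236). Mmp14 and the Adam genes are also expressed by stromal and immune cells, whose markers rose as given above, and the part of those cells in these values was not tested.

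Of 9 transcription factor genes that act on mucin genes or on intestinal identity, 0 were called higher and 3 lower, with a median of −0.35. The shares over all tested genes were 18.4% higher and 4.64% lower. The 3 called lower were Cdx2 (−3.14, limma adjusted p = 0.00847), Hnf4a (−1.20, limma adjusted p = 0.00253) and Cdx1 (−1.19, limma adjusted p = 0.00502), all regulators of the intestinal epithelium. Cdx2 was 82.1, 11.6 and 14.9 FPKM in Gm31629-/- mice 1 to 3 and 200.4, 238 and 234 FPKM in WT mice 1 to 3, so that Gm31629-/- mouse 1 stood apart from the other two of its group. Foxa1 was −0.69 (limma adjusted p = 0.00926), past the threshold for p alone. Of the NF-kappaB subunit genes, Rela was 0.59 (limma adjusted p = 0.0274) and Nfkb1 was 0.20 (limma adjusted p = 0.49). Stat3, a factor downstream of cytokine receptors, was 0.36 (limma adjusted p = 0.148), and Sp1, a factor of many promoters, was 0.0022 (limma adjusted p = 0.992).

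Of 6 cytokine genes that induce mucins, 4 passed the filter and 2 were called higher, with a median of 1.63, beside 18.4% of all tested genes called higher. Il1b was 16.7, 125 and 37.6 FPKM in Gm31629-/- mice 1 to 3 and 5.75, 5.18 and 5.52 FPKM in WT mice 1 to 3 (log2 fold change 2.77, limma adjusted p = 0.0117). Il6 had a log2 fold change of 1.54 (limma adjusted p = 0.0277). Both cytokines were highest in Gm31629-/- mouse 2 and Muc1 in mouse 3, and a link between them was not tested. Tnf was 0.31 (limma adjusted p = 0.481) and Il22, at 0.049, 16.9 and 2.11 FPKM in Gm31629-/- mice 1 to 3, was 1.73 (limma adjusted p = 0.158).

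**Figure D3:**
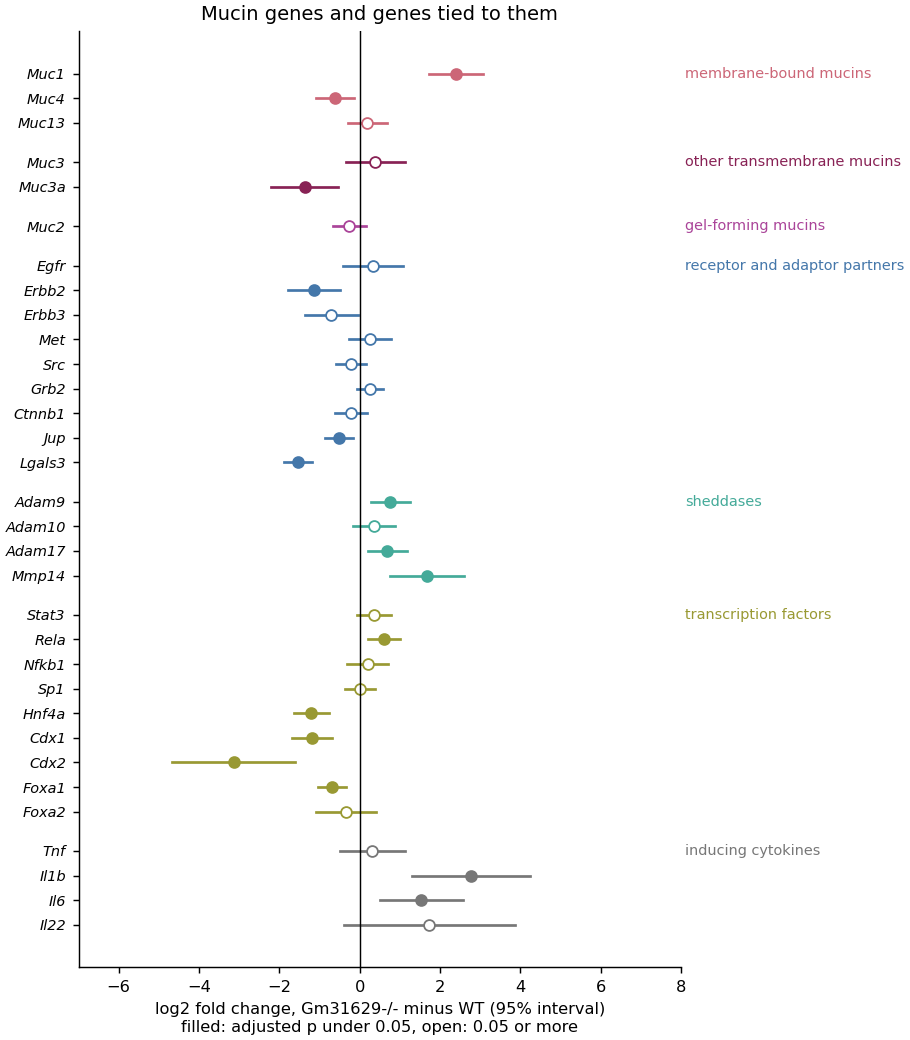
log2 fold change of log2(FPKM + 1), Gm31629-/- minus WT, with its 95% interval from limma, for the tested membrane-bound mucins and the tested genes of 6 related lists. Filled points have an adjusted p under 0.05 and open points 0.05 or more. Muc1 (2.40) lies far to the right, while Lgals3 (−1.53), Erbb2 (−1.14) and Cdx2 (−3.14) lie to the left.

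The genes that flank the members were looked at for shared reads and shared change. Next to Muc1, Mtx1 lies 1969 bases before it and had a log2 fold change of −0.13 (limma adjusted p = 0.535). Trim46 lies 796 bases after it and was 6.56, 6.47 and 12.6 FPKM in Gm31629-/- mice 1 to 3 and 6.37, 4.25 and 4.10 FPKM in WT mice 1 to 3 (log2 fold change 0.65, limma adjusted p = 0.0966). Muc4 and Muc20 overlap at their ends on opposite strands by 4973 bases. Of their exons, 627 bases are shared, which is 5.33% of Muc4 and 15.6% of Muc20. Whether the counting used strand is not given in the sources used here, and without it reads from these bases cannot be told apart, so that the low Muc20 values are uncertain. Beyond them, Tnk2 (0.12, limma adjusted p = 0.628) and Rubcn (0.08, limma adjusted p = 0.736) showed no detectable difference. The start of Muc13 is overlapped over 2838 bases by the opposite-strand gene Gm15657, at 14.4, 4.03 and 1.78 FPKM in Gm31629-/- mice 1 to 3 and 2.41, 1.93 and 1.37 FPKM in WT mice 1 to 3 (log2 fold change 1.06, limma adjusted p = 0.167). Gm15657 was thus low beside Muc13. Itgb5, an integrin subunit gene 9731 bases after Muc13, was 0.81 (limma adjusted p = 0.0161).

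For each member, the tested genes were ranked by how closely their profile over the 6 mice followed it, as the root mean square difference of log2(FPKM + 1) after the mean of each gene was removed. Nearest to Muc1 were Igkv3-4 (0.27), an immunoglobulin segment, Nt5e (0.31), the ectonucleotidase CD73, and Clca1 (0.31), a secreted protein of goblet cells. Clca1 averaged 456 ± 137 FPKM for WT and 3522 ± 895 FPKM for Gm31629-/-, and Nt5e was 4.78 ± 1.70 and 34.7 ± 4.87 FPKM (SD, n = 3). Nearest to Muc4 were Dlgap5 (0.062), a mitotic spindle gene, Pitrm1 (0.072), a mitochondrial protease, and Rtn4rl1 (0.076). Nearest to Muc13 were Cnpy2 (0.053), Gm45309 (0.053) and Serf2 (0.054). Nearest to Muc20 were Ube2e1 (0.034), Acer3 (0.036) and 2610005L07Rik (0.037), and since Muc20 itself varied little on this scale, these are genes with little change. The distances describe 6 libraries.

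The Muc1 difference kept its direction and its side of the threshold for p under every processing setting that was tried. In the fit as reported and 15 alternatives its log2 fold change was 2.14 to 2.82 and its limma adjusted p 0.000147 to 0.00733. Over the same 16 fits, Muc4 was −0.86 to −0.19 (limma adjusted p 0.00758 to 0.531) and Muc13 was −0.079 to 0.64 (limma adjusted p 0.0353 to 0.932).

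**Figure D4:**
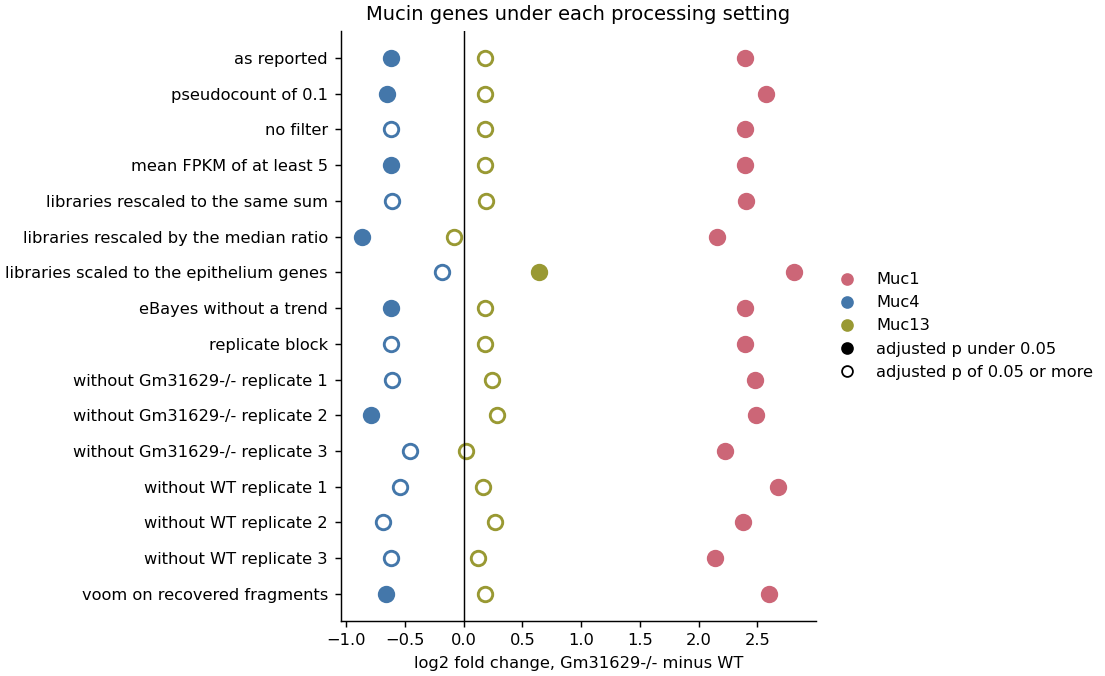
log2 fold change, Gm31629-/- minus WT, of Muc1, Muc4 and Muc13 under the fit as reported (top) and 15 alternative settings. Filled points have an adjusted p under 0.05 and open points 0.05 or more. Muc1 is filled and between 2.14 and 2.82 throughout, Muc4 stays below 0 and is filled in part of the settings, and Muc13 is filled only with libraries scaled to the epithelial markers.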

How the data were processed

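The authors deposited 1 table of FPKM values for 27546 genes, with a column per mouse. The submitters' processing notes name HISAT2 2.1.0, HTSeq 0.6.0 and build GRCm38, and the annotation and the use of strand are not given in the sources used here. The methods say that RNAs were pooled from 3 mice per genotype, whereas the table holds 6 columns that differ, so that p-values measure the spread between these libraries. Symbols and exon lengths came from GENCODE M21 (27488 identifiers matched). Fragments were recovered from the size of a single fragment's FPKM. Within 0.1, whole numbers made up 96.3% to 97.2% of each library's values of 20 fragments or fewer. Depth covers counting error only.

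The 14657 genes whose mean reached 0.5 FPKM entered a linear model of log2(FPKM + 1) in limma 3.58.1 (R 4.3.3), with eBayes set to a mean-variance trend and p-values adjusted by Benjamini-Hochberg over all of them. A call needed an adjusted p under 0.05 together with a log2 fold change larger than 1 in size. Differences per epithelial level and between members were tested by exact two-sided permutation. DEGseq, which the methods name, needs counts and was not used. Of these steps, the limma fit was tested on simulated data. The alternatives were no filter or a minimum mean of 5 FPKM, a pseudocount of 0.1, rescaling to the same sum, to the median ratio or to 15 epithelial markers, the median of these markers, eBayes with no trend, a replicate block, voom on recovered fragments, and leaving out each mouse.

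The members, lists and tests were chosen with earlier results of these data known. Genes named were the 4 members, the genes of the mucin-related lists, the 2 most abundant genes of cell type lists, the 3 nearest profiles per member and the nearest tested neighbours. A few listed genes are not reported here and were left out of the list counts. Sex-linked genes, overlapping genes and some cell type markers were added after their values were seen. Sequences were taken from RefSeq (GRCm38.p6) and GRCm38. Figures were drawn with matplotlib 3.10.9.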

Additional observations from a re-analysis of the deposited data

How the results depend on the processing

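Muc1 kept its direction and an adjusted p under 0.05 in all 15 alternatives. Muc4 kept its direction, but its adjusted p passed 0.05 with no filter (−0.62, adjusted p = 0.0612), with libraries rescaled to the same sum (−0.61, adjusted p = 0.0539), with libraries scaled to the epithelial markers (−0.19, adjusted p = 0.531) and with the replicate block (−0.62, adjusted p = 0.0713). Leaving out each mouse gave −0.79 to −0.46 for Muc4 (adjusted p 0.0149 to 0.126). The cause of these changes in adjusted p was not tested. Muc13 was −0.079 with libraries rescaled by the median ratio and 0.64 with scaling to the epithelial markers, and the difference of mean log2 values of Muc20 was 0.28 with a pseudocount of 0.1. Per epithelial level, Muc4 gave −0.32 to 0.037 when each mouse was left out, and was above 0 without Gm31629-/- mouse 3, while the median of the epithelial markers in place of the mean gave −0.42. Muc13 against Muc20 was −0.099 with a pseudocount of 0.1 and −0.12 to 0.25 when each mouse was left out. Without a mouse, no exact p can be under 0.10 and Benjamini-Hochberg values were at least 0.24.

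Over all tested genes, 2704 were called higher and 680 lower. With a minimum mean of 5 FPKM, 956 were called higher. The median ratio gave 1217 lower and scaling to the epithelial markers 307 lower. The share called higher was 79.9%, and became 64.7%, 92.8% and 66.0% with the median ratio, the epithelial markers and a mean of at least 5. The median log2 fold change of all tested genes was 0.15, −0.051 with the median ratio and 0.49 with the epithelial markers. List medians under the epithelial markers were −0.040 for other transmembrane mucins, 0.20 for gel-forming mucins, 0.23 for receptors and adaptors, 1.14 for sheddases and 0.046 for transcription factors. With the median ratio they were −0.52 for gel-forming mucins, −0.48 for receptors and adaptors and −0.56 for transcription factors.

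No pairing of the mice by replicate number was visible, since the deviations of same-numbered mice correlated at 0.036, −0.11 and 0.014. Mice with different numbers correlated at −0.13 to 0.12. Whether the mice were paired in another way was not tested. With the replicate number as a block, 3357 genes were called, against 3384 without it. Depth limited Muc20, at 9 to 22 fragments per library.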

Other observations

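Further marker lists of the colon wall were described in the same fit, beside 18.4% of all tested genes called higher and 4.64% lower. Intestinal stem cell markers, which mark the crypt base, gave 0 of 4 tested genes called higher and 1 lower, with summed FPKM of 10.5 to 30.02 in WT mice and 9.43 to 25.1 in Gm31629-/- mice. Squamous epithelium markers, which would mark tissue from the anal margin, gave 0 of 3 tested genes called in either direction (38.3 to 72.6 against 10.5 to 125 FPKM), and 3 of the 8 listed genes, Krt5, Trp63 and Dsg3, were at 0 in all WT mice. The most abundant of them, Sprr1a, averaged 54.2 ± 17.2 FPKM for WT and 51.8 ± 60.2 FPKM for Gm31629-/- (SD, n = 3). Krt14, a basal keratin, was 1.42, 1.97 and 0.526 FPKM in Gm31629-/- mice 1 to 3 and 0.0615, 0.284 and 0.242 FPKM in WT mice 1 to 3. Its groups did not overlap, as in 57.8% of all tested genes. The log2 fold change was 0.90 (limma adjusted p = 0.0276), past the threshold for p and not for fold. T cell markers gave 2 of 7 called higher and 0 lower (7.75 to 11.8 against 16.0 to 32.8 FPKM). Among those called was the receptor gene Trac, with a log2 fold change of 1.25 (limma adjusted p = 0.0166). Lck, another gene of this list, was 0.51 (limma adjusted p = 0.123), with groups that overlapped.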
